A study of Homo sapiens with 8 samples.

Results

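The clustered histone genes are the small, mostly intronless genes that supply most of the histone protein made while DNA is copied. They lie together in 4 groups, named HIST1 to HIST4 after their chromosomal positions. Members were chosen by name alone: every protein-coding gene whose symbol begins with HIST1H, HIST2H, HIST3H or HIST4H was taken, with no expression value used. The rule found 72 entries among the 60106 annotated genes, of which 20298 are protein-coding. They carry 71 symbols, since HIST2H2AA4 is listed 2 times at 1 position. HIST1, on chromosome 6, holds 55 of them, HIST2 and HIST3, on chromosome 1, hold 13 and 3, and HIST4, on chromosome 12, holds 1. By histone class, 6 encode the linker histone H1, 18 encode H2A, 18 encode H2B, 15 encode H3 and 15 encode H4. A filter on low counts left 62 for testing. The 10 others had at most 5 counts in any library: HIST1H2AA, HIST1H2BA, HIST1H4G, HIST2H2AA3, both entries of HIST2H2AA4, HIST2H3A, HIST2H3C, HIST2H4B and HIST3H3.

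RNA was measured in pneumospheres, floating spheres grown from lung tumour cells in serum-free medium with growth factors, of 4 established human lines: H23, H820 and H1975 from lung adenocarcinoma and EBC1 from squamous cell carcinoma. For every line there is 1 library of untreated spheres and 1 of spheres kept for 15 min in serum-free medium with 25 µg/ml of PD-L1s. PD-L1s is a soluble PD-L1 made by synthesis, and PD-L1 is the ligand of the immune checkpoint receptor PD-1. Each line stands for 1 tumour, and the labels do not say that libraries of a line came from separate cultures, so the p-values below measure the spread between these libraries. Library totals ran from 5559870 to 27524854 counts. The treated library was 4.28 times deeper than the untreated one in H820 and 4.67 times deeper in EBC1, against 0.766 and 0.936 times in H23 and H1975. The summed level of 5 epithelial markers (EPCAM, CDH1, KRT8, KRT18 and KRT19) was 1656 to 4085 CPM (counts scaled to library size) in EBC1, H820 and H1975 but 143 and 145 CPM in H23. The 7 immune markers summed to 6.42 and 7.94 CPM in H23 and to 70.2 to 151 CPM in the other lines, nearly all of it CD68 (65.8 to 151 CPM there), while MS4A1 had 0 counts in all 8 libraries and PTPRC at most 8. Fibroblast markers summed to 18.2 to 59.4 CPM and endothelial markers to 0.192 to 11.5 CPM.

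Each nucleosome wraps DNA around a core of H2A, H2B, H3 and H4, and H1 binds the linker DNA between cores. The clustered genes are transcribed mainly in S phase, when the cell must package newly copied DNA, and most of their messages end in a conserved stem-loop rather than a poly(A) tail. The libraries were made from total RNA after removal of ribosomal RNA, without poly(A) selection. Many copies encode the same or nearly the same protein, so a cell can draw on different sets of copies. Replacement histones such as H3F3B and H2AFZ are encoded by genes outside the clusters and are made throughout the cell cycle. Because these are bulk RNA measurements, fewer cells in S phase and less histone RNA per cell cannot be told apart.

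Promoter sequences show which elements the members share. RefSeq promoters (assembly GRCh38.p14, 250 bases before to 50 after the start) were matched for 61 of the 71 symbols and searched on both strands for TATAAA (the TATA box), CCAAT (the CCAAT box) and ATTTGCAT (the octamer, bound by POU2F1). TATAAA was present in 67.2% of member promoters, against 11.95% of all 27305 promoters of the same length. CCAAT was present in 83.6%, against 35.7%. The octamer was in 34.4%, against 1.80%. The classes differed: CCAAT was in every one of the H1, H2A, H2B and H3 promoters but in only 3 of 13 H4 promoters, and the octamer was in 11 of 16 H2A and 9 of 13 H2B promoters, in 1 of 13 H3 and in none of the H1 or H4 promoters. No match of one motif overlapped a match of another, but in 4 promoters TATAAA and its reverse complement overlapped at 1 site. Windows are not independent: 18 of the 61 overlap that of another member, and HIST1H3D, the H3 gene with the octamer, has the same window as the H2A gene HIST1H2AD. Below are the 250 bases before the start of 6 copies on which the results turn, on the gene's own strand, with matches to the 3 motifs in capitals (a match on the other strand appears as its reverse complement). HIST1H3C and HIST1H3G are H3 copies of which the first was at 0 in H23 and the second at 0 in EBC1. HIST1H4D and HIST1H2AE lie in a run of neighbours almost without counts in EBC1, and HIST4H4 is the leading H4 copy of that line. HIST2H2BE is a copy used in every line.
HIST1H3C, chr6:26045134-26045383, plus strand: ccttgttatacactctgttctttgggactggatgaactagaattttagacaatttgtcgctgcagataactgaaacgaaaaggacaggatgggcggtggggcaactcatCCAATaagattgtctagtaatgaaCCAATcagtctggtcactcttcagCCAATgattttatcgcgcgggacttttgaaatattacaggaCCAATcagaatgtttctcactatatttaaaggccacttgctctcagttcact
HIST1H3G, chr6:26271414-26271663, minus strand: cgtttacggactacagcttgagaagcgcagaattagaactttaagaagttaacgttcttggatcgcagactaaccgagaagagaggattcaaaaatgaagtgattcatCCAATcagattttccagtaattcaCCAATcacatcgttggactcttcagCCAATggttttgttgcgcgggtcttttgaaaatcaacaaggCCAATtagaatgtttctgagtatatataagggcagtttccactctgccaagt
HIST1H4D, chr6:26189113-26189362, minus strand: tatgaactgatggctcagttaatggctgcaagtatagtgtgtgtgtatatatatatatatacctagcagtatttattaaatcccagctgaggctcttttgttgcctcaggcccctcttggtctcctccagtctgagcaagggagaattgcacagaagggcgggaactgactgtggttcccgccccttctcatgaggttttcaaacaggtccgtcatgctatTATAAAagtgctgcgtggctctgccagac
HIST4H4, chr12:14771132-14771381, minus strand: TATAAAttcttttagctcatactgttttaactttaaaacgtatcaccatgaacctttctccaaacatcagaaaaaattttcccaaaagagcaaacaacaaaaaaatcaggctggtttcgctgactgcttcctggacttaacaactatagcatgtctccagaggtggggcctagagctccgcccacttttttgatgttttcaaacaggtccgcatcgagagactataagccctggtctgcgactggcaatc
HIST1H2AE, chr6:26216671-26216920, plus strand: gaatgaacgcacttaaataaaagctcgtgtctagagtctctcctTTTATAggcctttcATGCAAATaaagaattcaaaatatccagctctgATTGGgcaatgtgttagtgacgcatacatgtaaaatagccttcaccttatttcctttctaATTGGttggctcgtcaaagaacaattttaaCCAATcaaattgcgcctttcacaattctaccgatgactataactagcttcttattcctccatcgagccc
HIST2H2BE, chr1:149886683-149886932, minus strand: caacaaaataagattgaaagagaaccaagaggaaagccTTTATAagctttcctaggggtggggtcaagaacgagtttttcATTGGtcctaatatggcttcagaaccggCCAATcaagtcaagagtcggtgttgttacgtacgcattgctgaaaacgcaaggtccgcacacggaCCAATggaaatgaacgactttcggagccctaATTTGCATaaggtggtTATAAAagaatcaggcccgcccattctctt
Both H3 windows held 4 CCAAT matches and no TATAAA. Both H4 windows held 1 TATAAA and no CCAAT. The match in HIST1H4D lies close to the start, but that in HIST4H4 opens the window, at the end farthest from the start. The HIST1H2AE window held all 3 motifs, with 1 octamer, and so did that of HIST2H2BE. The TATAAA match of HIST1H2AE is on the other strand, in the outer part of its window. Only exact matches were marked, wherever in the window they lay. A TATAAA match therefore need not be a TATA box, and its absence does not exclude a variant one. A match in these windows describes the sequence only and shows no binding.

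The members made up 0.0708% to 0.355% of all counts in a library. Their summed level, scaled by TMM (trimmed mean of M values, edgeR's correction for library composition), was highest in H23, with 2657 CPM untreated and 2772 CPM treated. EBC1 had 1974 and 2420 CPM, H1975 had 1246 and 1328 CPM, and H820 had 666 and 1468 CPM. The lines thus did not overlap, except that treated H820 lay above both libraries of H1975.

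**Figure D1:**
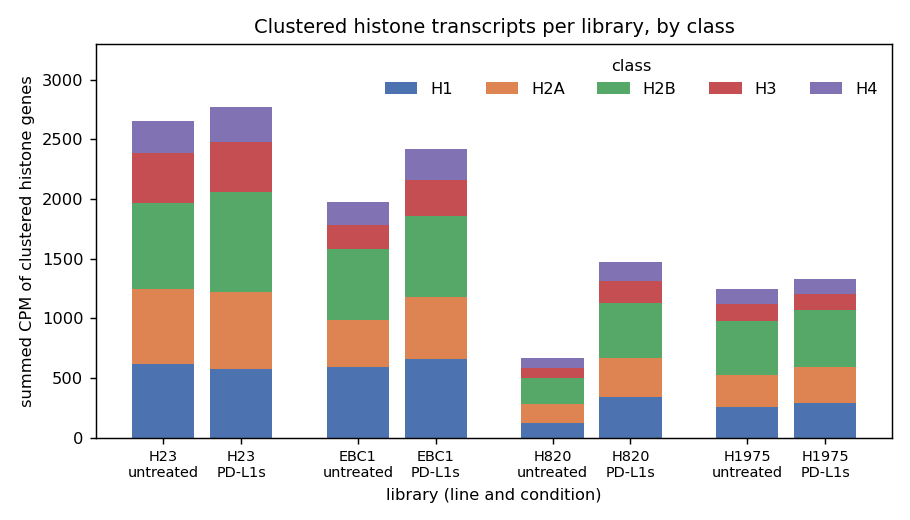
Stacked bars give the summed CPM (TMM-scaled) of the clustered histone genes in each of the 8 libraries, split into the classes H1, H2A, H2B, H3 and H4. H23 stands highest at 2657 and 2772 CPM, and H820 is the one line in which the bar more than doubles from untreated (666 CPM) to PD-L1s (1468 CPM).

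All 5 classes contributed in every library. As shares of the members' counts, averaged over 8 libraries, H2B supplied 31.6% ± 3.47 (SD), H1 23.1% ± 3.80, H2A 22.4% ± 1.38, H3 12.5% ± 1.98 and H4 10.5% ± 1.14. Counts favour longer transcripts. After division by exonic length, H2A and H2B came to nearly the same share, 25.0% and 24.8%, H1 to 22.4%, H3 to 14.8% and H4 to 13.0%. The H1 share per length was largest in EBC1, at 27.6% untreated and 24.6% treated, and the H2A share per length was largest in H23, at 28.7% and 28.5%.

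The most abundant copy of each class was set by its level per kilobase of exon, as a mean over all libraries. HIST1H1C, a linker histone gene, led with 279 CPM per kb. HIST1H2BK (H2B) followed with 198 CPM per kb, HIST2H2AC (H2A) with 121, HIST1H3B (H3) with 120 and HIST1H4B (H4) with 61.6. This order depends on the annotated length. By mean CPM alone, HIST2H2BE (97.5 CPM) led H2B, HIST1H2AC (73.2 CPM) led H2A and HIST4H4 (33.4 CPM) led H4. HIST1H4B led H4 per kb in no single line: HIST1H4F did in H23 and H1975, and HIST4H4 in EBC1 and H820. HIST1H1C was at 164 and 157 CPM in H23 (untreated, then treated), 273 and 290 in EBC1, 158 and 172 in H1975 and 63.3 and 156 in H820. EBC1 held the highest level of this copy, above every library of the other lines. HIST2H2BE, an H2B copy on chromosome 1 and one of those reported to give polyadenylated messages, was at 121 and 151 CPM in H23, 90.4 and 109 in EBC1, 93.6 and 102 in H1975 and 32.5 and 81.2 in H820. Its order was H23, then EBC1 and H1975, whose ranges overlapped, then H820.

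A copy was called used in a line when it reached 1 CPM in both libraries. H1975 used 59 of the 72 copies, H23 used 56, H820 used 51 and EBC1 used 46. Thinning every library to the total of the smallest left these counts at 58, 56, 51 and 46. A core of 36 copies was used in all 4 lines, at mean levels of 2.71 to 179 CPM (median 30.0), and 11 were used in none. The core held HIST1H1B to HIST1H1E among the H1 genes, HIST4H4, and 5 genes of HIST2. The effective number of copies, the number of equally used copies that would give the same spread of levels per kilobase, was 32.0 in H23, 26.7 in H820, 22.9 in H1975 and 19.0 in EBC1. EBC1 thus drew on the fewest copies by both measures. Of those it left unused, 13 were neighbours on chromosome 6 that every other line used. Neither measure was recomputed without them, so they do not show narrow use elsewhere in the clusters.

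**Figure D2:**
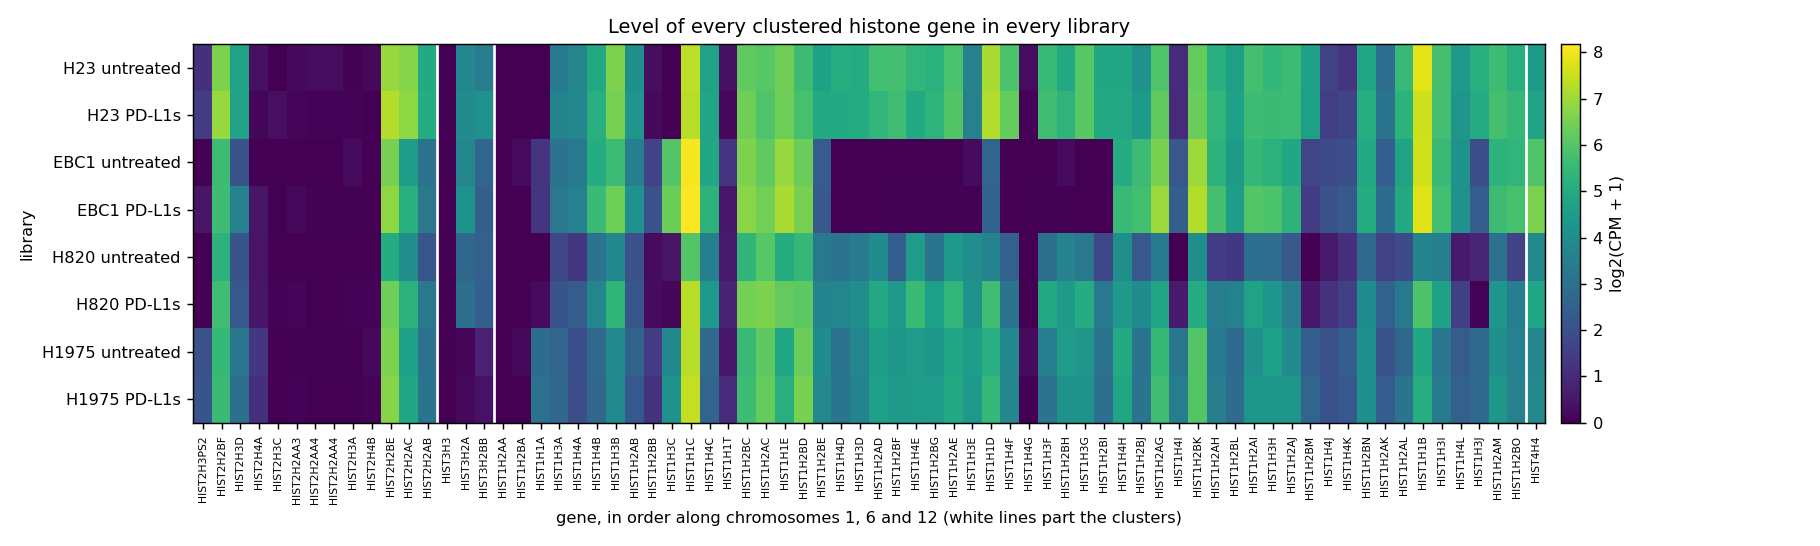
Colour gives log2(CPM + 1) of each of the 72 entries (columns, in order along chromosomes 1, 6 and 12, with the clusters parted by white lines) in each of the 8 libraries (rows). The dark block in both EBC1 rows is the run from HIST1H4D to HIST1H2BI, broken only by HIST1H1D, and the 10 entries outside the tests are dark in every row.

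Apart from the core, copies fell into a few patterns of use. The largest held 13 copies used in H23, H820 and H1975 but not in EBC1, and all 13 were neighbours on chromosome 6. HIST1H1A, HIST1H2BB, HIST1H3C and HIST1H4I were used in EBC1 and H1975 only. HIST1H2BM, HIST1H3J, HIST1H4J and HIST1H4L were used in every line but H820, and HIST3H2A and HIST3H2BB in every line but H1975. HIST2H3PS2 was used in H23 and H1975, and HIST2H4A in H1975 alone.

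In EBC1 a stretch of the chromosome 6 cluster was almost without counts. From HIST1H4D (GRCh37 chr6:26188993-26189304) to HIST1H2BI (chr6:26273204-26273584), a span of 84592 bases, lie 15 members in a row. HIST1H4D, HIST1H3D, HIST1H2AD, HIST1H4E, HIST1H4F, HIST1H4G, HIST1H3G and HIST1H2BI had 0 counts in both EBC1 libraries. HIST1H2BF, HIST1H2BG, HIST1H2AE, HIST1H3E, HIST1H3F and HIST1H2BH had 1 count each over both. These 14 members together had 6 counts in EBC1. In the other 6 libraries 13 of the 14 had totals of 1864 or more, HIST1H4G alone being low there with 10. Across all members, 13 had at most 1 count in EBC1 and at least 100 elsewhere, and all 13 lay in this run.

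HIST1H4D, an H4 copy, had 822 and 625 counts in H23, 45 and 269 in H820, 174 and 173 in H1975 and 0 and 0 in EBC1. Taking 3 counts over both EBC1 libraries as the floor that a count of 0 allows, it was at least 153-fold lower in EBC1 than the mean of the other 6 libraries. HIST1H2AD, an H2A copy, had 51.3 and 40.5 CPM in H23, 14.5 and 29.8 in H820, 23.02 and 23.6 in H1975 and 0 in both EBC1 libraries, at least 280-fold lower. Both genes were highest in H23. They are described here as members at 0 counts in EBC1, so their lack of overlap with EBC1 restates that choice. On the same scale the bounds were at least 321-fold for HIST1H3G, 281-fold for HIST1H4E, 262-fold for HIST1H4F, 171-fold for HIST1H3D and 131-fold for HIST1H2BI. HIST1H3D and HIST1H2AD share exons with an overlapping protein-coding gene model, RP1-34B20.21, and the authors' counting gave a read in such a place to both. That gene had 0 counts in EBC1 and 6151 in the other 6 libraries. These floors cover counting error only.

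HIST1H1D was the exception inside the run. This linker histone gene had 28 counts in untreated and 113 in treated EBC1, against 9326 over the other 6 libraries, and was 13.98-fold lower (95% counting interval 11.9 to 16.6). No 50-base stretch of its annotated transcripts occurs in another histone gene. The annotated pseudogenes inside the run were at 0 in EBC1 as well, among them RP1-34B20.4, with 211 counts elsewhere, and HIST1H2APS4, with 89.

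The run was cut at the outermost members with at most 1 count in EBC1, and the step at its ends differed by side. On its left, HIST1H2BE, an H2B copy, had 22 and 88 counts in EBC1 and was 4.34-fold lower there (3.60 to 5.28), and the next gene outwards, HIST1H2BD, had 2424 counts over both EBC1 libraries. On its right, HIST1H4H, an H4 copy, had 169 and 1000 counts and lay above the mean of the other lines, at 0.605 times when expressed as a fall (0.572 to 0.642). Genes of other kinds around the run were expressed in EBC1: HFE, an iron-regulating gene, had 55 and 306 counts, and BTN3A2, a butyrophilin, had 44 and 256. Of the 20 other protein-coding genes between the first and last HIST1 member, 15 were tested. In EBC1, 6 were higher and 4 lower, where 28.1% and 26.4% of all genes were. These 20 include RP1-34B20.21, which lies inside the run and had 0 counts in EBC1, so they are not all genes around it.

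**Figure D3:**
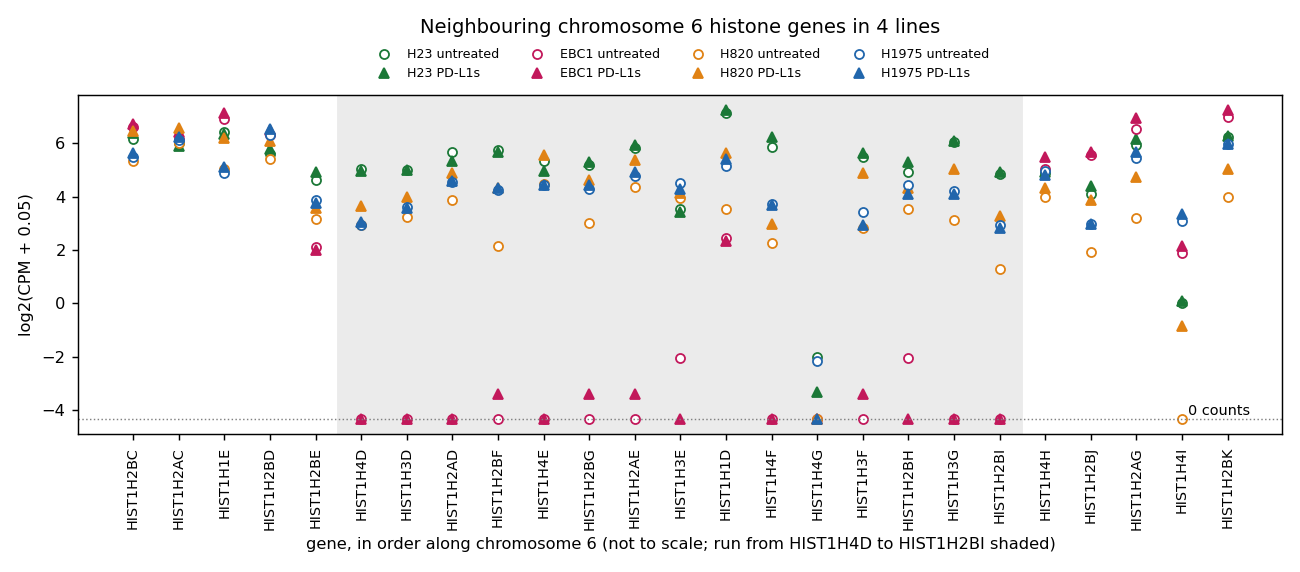
Each point is the log2(CPM + 0.05) of 1 gene in 1 library, for the run of 15 neighbours (shaded) and 5 members on either side in chromosomal order, with open circles for untreated and filled triangles for PD-L1s. All EBC1 points in the shaded run lie at or near the dotted line for 0 counts apart from HIST1H1D. In the other 3 lines every gene of the run except HIST1H4G reaches 1 CPM in both libraries.

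The run supplied 25.6% and 25.5% of the members' counts in H23, 22.1% and 24.3% in H820 and 20.7% and 19.7% in H1975, but 0.292% and 0.217% in EBC1. It matters most for H3 and H4: outside EBC1 it gave 37% to 52.1% of the H3 counts and 34.6% to 47.9% of the H4 counts. EBC1 nevertheless had 206 and 296 CPM of H3 transcripts and 189 and 263 CPM of H4 transcripts, nearly all from copies outside the run. Those outside copies of H4 summed to 143 and 154 CPM in H23, 51.4 and 89.8 in H820 and 79.9 and 78.1 in H1975, so EBC1 was above every other library for them. For H3 outside the run, EBC1 overlapped H23 (261 and 261 CPM) and was above H820 and H1975 (37.05 to 90.5 CPM).

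Single copies carried much of this in EBC1. HIST1H3C, an H3 copy, gave 32.4% of the H3 level per kilobase there, against 16.2% in H1975, 0.234% in H820 and 0% in H23. It had 62.2 and 80.1 CPM in EBC1, 13.2 and 17.4 in H1975, 0.338 and 0.0928 in H820 and 0 counts in both H23 libraries. With a floor of 3 counts over both H23 libraries, EBC1 was at least 1063-fold and H1975 at least 229-fold above H23. HIST4H4, the H4 copy on chromosome 12, gave 28.6% of the H4 level per kilobase in EBC1, against 6.48% in H23, 17.2% in H820 and 10.9% in H1975. Its levels were 60.8 and 93.3 CPM in EBC1, 21.1 and 25.4 in H23, 13.7 and 27.3 in H820 and 12.3 and 13.6 in H1975, with no overlap between EBC1 and the others. Per kilobase, HIST1H3C also led H3 in H1975, and HIST4H4 also led H4 in H820.

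**Figure D4:**
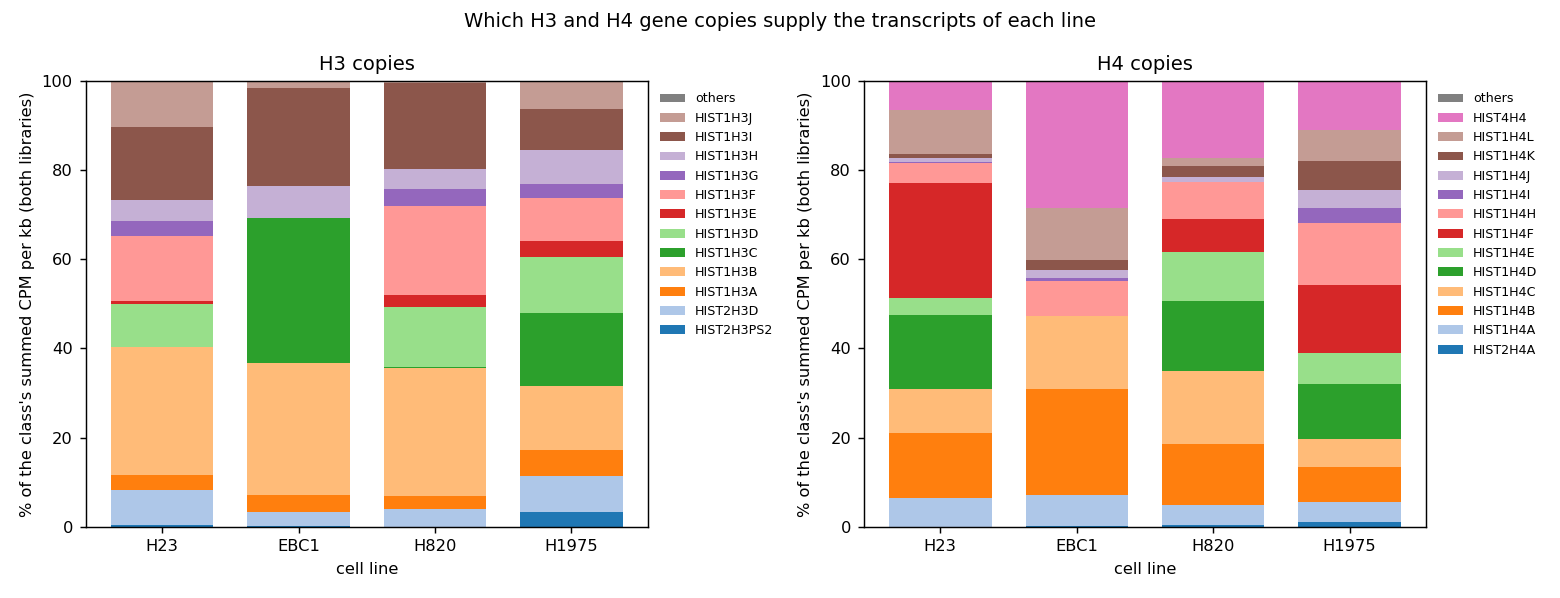
Bars give the percentage of the H3 level (left) and H4 level (right), as CPM per kb of exon averaged over both libraries of a line, that each gene copy supplied. In EBC1, HIST1H3C reaches 32.4% of H3 and HIST4H4 28.6% of H4, and the copies of the chromosome 6 run are missing.

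Next, each line was tested against the mean of the other 3 with edgeR's quasi-likelihood test, with treatment as a term and p-values adjusted by Benjamini-Hochberg over all 24185 genes. Each line has 2 libraries here. In H23, 46 of 62 members were higher and 7 lower, where 34.4% and 27.4% of all genes were called higher and lower. The median log2 difference of the members was 1.43, beside 0.10 for all genes. H23 had 13 of 14 H2A copies and 11 of 12 H3 copies higher. Fitted differences that involve a line with 0 counts depend on the prior count, so they are not given here for such copies; over the 48 tested members outside the EBC1 run the median was 1.07. Without the EBC1 libraries, 49 members were higher and 5 lower, where 34.6% and 27.7% of all genes were. In the test with EBC1 the highest were HIST1H4F, HIST1H3G and HIST1H2BI, all from the run that EBC1 lacked, and against H820 and H1975 alone their log2 differences were 2.89, 1.85 and 2.13. HIST1H4F, an H4 copy, was at 57.8 and 75.0 CPM in H23, 4.74 and 7.80 in H820 and 13.2 and 12.9 in H1975. HIST1H3G, an H3 copy, was at 66.3 and 66.9 CPM in H23, 8.63 and 32.7 in H820 and 18.2 and 17.1 in H1975. Both were highest in H23, with no overlap. HIST1H3C and HIST1H1A, both at 0 counts in H23, and HIST1H2BB were the lowest. HIST1H1A, a linker histone gene, was at 6.497 and 7.54 CPM in H1975 and 1.34 CPM in each EBC1 library. HIST1H2BB had 0.241 and 0.151 CPM in H23 and a log2 difference of -2.16 ± 0.57 (adjusted p = 0.00294), a call lost without the EBC1 libraries (-1.38, adjusted p = 0.0796), without treated H23 (adjusted p = 0.0527) and without treated H820 (adjusted p = 0.0514). The count of lower members in H23 depended on which single library was left out.

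In EBC1, 33 members were higher and 18 lower, where 28.1% and 26.4% of all genes were called, and the median was 0.61 beside -0.08 for all genes. The run was set by its low EBC1 counts, so the 14 lower calls inside it restate that choice, and values for members outside it are a description that depends on it. Of the 48 outside, 33 were higher and 4 lower, with a median of 0.99. HIST1H3G, HIST1H4E, HIST1H2AD, HIST1H4F and HIST1H3D, all at 0 counts, were the lowest. The highest were HIST1H3C (levels given above), HIST1H2BB (log2 difference 2.85 ± 0.39), HIST3H2A (2.79 ± 0.20), HIST1H1A and HIST1H2BJ (2.11 ± 0.20). HIST3H2A, an H2A copy, was at 12.7 and 17.6 CPM in EBC1, which overlaps H23 (13.1 and 14.6 CPM), and was near 0 in H1975. HIST1H1A was at least 20.1-fold above its floor in H23 but lower in EBC1 (1.34 CPM) than in H1975 (6.497 and 7.54 CPM). HIST1H2BJ, an H2B copy, was at 47.6 and 51.0 CPM in EBC1, 16.8 and 21.1 in H23, 3.72 and 14.8 in H820 and 7.76 and 7.87 in H1975. No other library reached the EBC1 levels of this copy.

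In H820, 14 members were higher and 37 lower, where 30.6% and 22.9% of all genes were called, and the median was -0.86 beside 0.04 for all genes. The higher calls rested on EBC1: 13 of the 14 lay in its run of near-zero copies, and without the EBC1 libraries 1 member was higher and 41 lower, where 27.9% and 26.8% of all genes were. HIST1H4E, HIST1H2AD and HIST1H3G were the highest in the test with EBC1, and their log2 differences without it were 0.25, -0.58 and -0.79. Outside the run the median was -1.10, with 1 member higher and 37 lower. The lowest were HIST2H3PS2, HIST1H3J and HIST1H2BM. HIST2H3PS2, an H3 copy of the HIST2 cluster, had 0 counts in both H820 libraries, 1.20 and 1.76 CPM in H23 and 3.05 and 3.34 CPM in H1975. It shares 56.1% of its 50-base stretches with other histone genes and overlaps RP5-998N21.10 on the same strand, so its counts are uncertain. HIST1H3J had 0.846 and 0.0464 CPM in H820 against 34.6 and 31.9 in H23 (log2 difference -5.28 ± 0.45). In a later annotation 40.9% of the 50-base stretches of its transcripts occur in HIST1H2AM. Those transcripts hold 726 such stretches, while the exons counted here span 411 bases, so sharing within the counted exons was not shown. HIST1H2BM, an H2B copy, had 0 and 0.464 CPM against 24.5 and 24.1 in H23 (-4.07 ± 0.39). The median of the members in H820 was -0.42 without its untreated library and -1.37 without its treated one.

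In H1975, 25 members were higher and 24 lower, where 31% and 22.6% of all genes were called, and the median was -0.02 beside 0.03 for all genes. Again 13 of the higher calls lay in the run, and without the EBC1 libraries 14 were higher and 29 lower, where 30.9% and 27.4% of all genes were. Outside the run the median was -0.47. HIST1H1A, HIST1H3C and HIST2H3PS2 were highest. HIST1H1A and HIST1H3C were at least 105-fold and 229-fold above the floor of H23, where both had 0 counts, and HIST2H3PS2 was at least 29.3-fold above the floor of H820. HIST3H2A and HIST3H2BB, a divergently transcribed pair on chromosome 1 whose starts lie 233 bases apart, were lowest together with HIST1H4C. HIST3H2A was at 0.0872 and 0.141 CPM in H1975, 13.1 and 14.6 in H23, 12.7 and 17.6 in EBC1 and 5.58 and 7.10 in H820 (log2 difference -6.52 ± 0.33). HIST3H2BB was at 0.698 and 0.330 CPM in H1975, 9.75 and 16.8 in H23, 5.37 and 4.57 in EBC1 and 4.74 and 4.45 in H820 (-3.63 ± 0.34). Both members of the pair were thus low in every H1975 library. HIST1H4C was at 5.89 and 5.37 CPM in H1975 and at 10.3 to 38.1 CPM elsewhere (-2.07 ± 0.19).

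Such divergent pairs are common in the clusters: 11 pairs of an H2A and an H2B gene had starts within 330 bases of each other. The partners were not always used alike. In HIST1H2AJ and HIST1H2BM the mean levels in EBC1 were 33.7 and 2.002 CPM, while in H23 they were 47.8 and 24.3 CPM.

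Lists of genes that work with the histones are given next, to be read against the shares of all genes called: 34.4% higher and 27.4% lower in H23, 28.1% and 26.4% in EBC1, 31% and 22.6% in H1975 and 30.6% and 22.9% in H820. S phase genes, such as MCM2 to MCM7 of the replicative helicase, were higher in 19 of 25 in H23 and 23 of 25 in EBC1, and lower in 23 of 25 in H820 and 14 of 25 in H1975. G2/M genes were higher in 21 of 22 in H23 and 7 of 22 in EBC1, and lower in 15 of 22 in H820 and 12 of 22 in H1975. Their part in the histone differences was not tested. Of 11 tested replacement and other unclustered histone genes, 8 were higher and 1 lower in EBC1, 4 and 3 in H23, 2 and 5 in H820 and 3 and 7 in H1975. Histone chaperones, which carry histones to DNA, had 12 of 18 higher and 4 lower in H23, 8 and 4 in EBC1, 2 and 8 in H1975 and 2 and 8 in H820. Transcription factors of histone genes had 7 of 13 higher and 2 lower in H23, 5 and 3 in EBC1, 1 and 6 in H1975 and 3 and 6 in H820. Factors of histone mRNA 3′ end processing and decay had 4 of 13 higher and 2 lower in H23, 5 and 2 in EBC1, 2 and 5 in H1975 and 3 and 6 in H820. Members reported to give polyadenylated messages had 4 of 12 higher and 1 lower in H23, 8 and 1 in EBC1, 2 and 5 in H1975 and 2 and 8 in H820. Several of these counts lie near the share of all genes and are no result about the lists. In H23 they include the 4 of 11 replacement genes, 4 of 12 polyadenylated members and 4 of 13 3′ end factors called higher. The 3 of 11 replacement genes called lower in H23 also lie near it. So do the 7 of 22 G2/M genes higher and 3 of 13 transcription factors lower in EBC1, and the 3 of 11 replacement genes higher in H1975.

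Exposure to PD-L1s for 15 min gave no member past the threshold. In edgeR's test over all 8 libraries with line as a term, 0 of 62 members were called, where 0.0372% of all genes were called, and DESeq2 called 0 as well, beside 0.0248% of all genes. At an unadjusted p under 0.05, 22 members were counted by edgeR, all of them higher, and 8 by DESeq2, beside 625 higher and 249 lower among all genes in edgeR. All genes at that p are not given here for DESeq2, so the 8 have no background to be read against. The fitted log2 change was above 0 in 58 of 62 members, with a median of 0.32 beside 0.04 for all genes. All of the 22 were nominal, and each member's adjusted p was 0.9996. The members with the smallest p were HIST4H4, HIST2H2AC, HIST1H2AG, HIST2H2BE and HIST1H2AM. HIST4H4 had a log2 change of 0.49 ± 0.13 (unadjusted p = 0.0017 in edgeR) and was higher after treatment in 4 of 4 lines, by the levels given above. HIST2H2AC, an H2A copy whose start lies 322 bases from that of HIST2H2BE, was at 102, 22.6, 15.6 and 24.1 CPM in untreated H23, EBC1, H820 and H1975 and at 111, 33.99, 37.5 and 28.8 CPM in the treated libraries (0.51 ± 0.15). It was also higher in 4 of 4 lines, and the untreated and treated ranges overlapped. HIST1H2AG (0.51 ± 0.15), HIST2H2BE (0.48 ± 0.15) and HIST1H2AM (0.42 ± 0.15) were likewise higher in 4 of 4 lines. On the lower side, HIST1H3E had a log2 change of -0.07 ± 0.16, HIST2H4A -0.14 ± 0.51, HIST1H3J -0.05 ± 0.21 and HIST1H2BB -0.01 ± 0.36, each smaller than its standard error. Without a filter on low counts the same test called 5 members, all higher, where 0.232% of all genes were called: HIST1H1D, HIST1H2AG, HIST1H2AH, HIST1H3B and HIST2H2AC.

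The ratio of treated to untreated was largest in H820. Within a line there is 1 library per condition, so these ratios have no replicate check. In H820 the summed level of the members was 2.20 times as high in the treated as in the untreated library, while the ratio was 1.23 in EBC1, 1.07 in H1975 and 1.04 in H23. In H820 all 5 classes took part, at 2.81 times for H1, 2.41 for H3, 2.08 for H2B, 2.02 for H2A and 1.83 for H4. The median log2 ratio of the members was 1.09 in H820, 0.21 in EBC1, 0.07 in H1975 and 0.06 in H23, beside medians of all genes of 0.06, 0.08, 0.00 and 0.00. In H820, 34 of 62 members were more than 2-fold higher and 1, HIST1H3J, more than 2-fold lower, where 1067 and 816 of the 24185 genes were. In H23 and H1975 no member passed 2-fold in either direction. Few of the 24185 genes did so there: 166 higher and 156 lower in H23, and 165 and 148 in H1975. HIST1H3B, the leading H3 copy, went from 13.0 CPM without treatment to 39.6 CPM with it in H820. The paired values were 95.5 and 90.2 in H23, 48.2 and 82.7 in EBC1 and 13.4 and 13.7 in H1975. HIST1H2BK, the leading H2B copy per kb over all libraries, was at 15.7 and 32.9 CPM in H820 and 126 and 151 in EBC1. It was at 74.6 and 77.7 CPM in H23 and 63.4 and 62.7 in H1975. HIST1H4B, an H4 copy, was at 7.61 and 12.6 CPM in H820, 32.2 and 47.2 in EBC1, 30.3 and 34.6 in H23 and 6.02 and 5.46 in H1975. H820 stood alone in the size of the ratio for HIST1H3B and HIST1H2BK, while EBC1 came close to it for HIST1H4B.

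**Figure D5:**
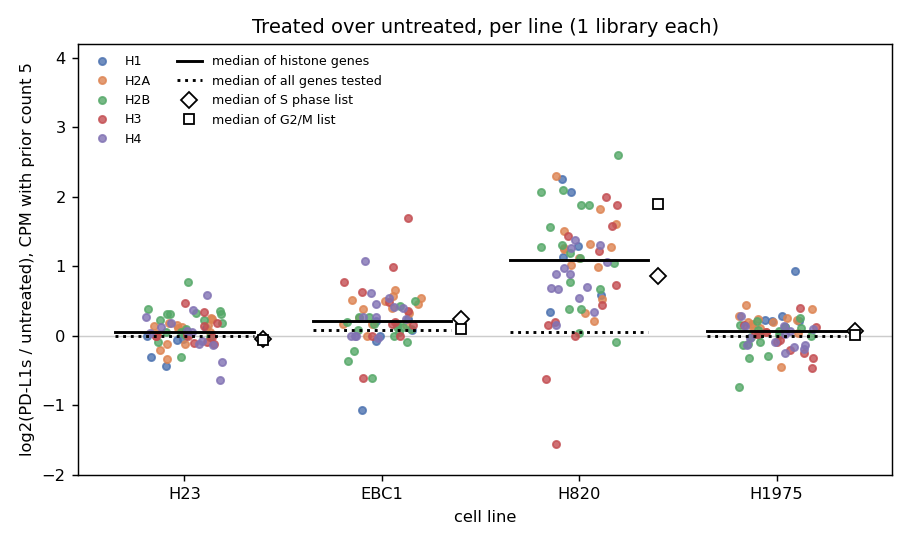
Each point is the log2 ratio of PD-L1s to untreated (CPM with a prior count of 5, 1 library each) of 1 of the 62 tested histone genes in 1 line, coloured by class, with solid bars for their median and dotted bars for the median of all genes tested. The histone median is 1.09 in H820, with the S phase and G2/M list medians (diamond and square) at 0.86 and 1.90, and lies between 0.06 and 0.21 in the other lines.

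Genes of the cell cycle moved in the same 2 libraries of H820. The S phase list had a median log2 ratio of 0.86 there, with 25 of 25 genes above 0, and the G2/M list 1.90, with 22 of 22. Summed, the S phase genes went from 423 to 707 CPM and the G2/M genes from 342 to 1473 CPM. Replacement histone genes had a median of 0.51, and the members reported polyadenylated 1.01, against 1.128 for the other members. The treated library was 4.28 times as deep as the untreated one in H820 and 4.67 times in EBC1, with histone medians of 1.09 and 0.21. CD68 went from 65.8 to 131 CPM and the epithelial markers from 1656 to 2663 CPM in H820. The part of depth, of cell cycle phase and of these markers in the histone ratio was not tested. Without H820, the median treatment change of the members was 0.13, with 10 at an unadjusted p under 0.05 in edgeR. In H23 and H1975 alone, whose libraries are of like depth, it was 0.07, with 11. All genes at that p were not counted in these fits, so the 10 and 11 have no background to be read against.

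No gene of the accompanying lists was called for treatment. By the smallest unadjusted p in edgeR, the replacement histone list was led by H1FX (log2 change 0.41 ± 0.13) and H2AFZ (0.28 ± 0.12), the transcription factor list by E2F1 (0.28 ± 0.14) and CCNE2 (0.27 ± 0.14), and the chaperone list by ASF1B (0.26 ± 0.14) and CHAF1B (0.24 ± 0.15). The S phase list was led by MCM5 (0.36 ± 0.14) and MCM6 (0.30 ± 0.13), and the G2/M list by CDK1 (0.54 ± 0.20) and BUB1 (0.47 ± 0.22). In the 3′ end processing list ZNF473 (0.12 ± 0.13) and LSM11 (-0.12 ± 0.14) had the smallest p, and among the chromosome 6 neighbours BTN3A3 (0.29 ± 0.15) and BTN2A2 (0.26 ± 0.13). Every adjusted p in these lists was 0.9996 in edgeR.

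Some members cannot be told apart by short reads. In a later annotation (GENCODE release 29), HIST2H3A and HIST2H3C share 100% of their 50-base stretches, HIST1H4K shares 100% of its own with HIST1H4J, and HIST2H4A shares 97.5% with HIST2H4B. Counts of these copies are uncertain, since the deposited counts used reads above a minimum mapping quality only. Of 67 members compared, 32 shared no 50-base stretch with another histone gene and 13 shared at least 50%. Among the 13 is HIST1H2AM, whose 86.3% is shared with HIST1H3J transcripts that are longer than the HIST1H3J exons counted here. Given such sharing, the low counts of HIST2H3A, HIST2H3C and the 3 HIST2H2AA entries do not show that these copies were silent.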

How the data were processed

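The authors deposited 1 table per library with a count per gene and each gene's exonic length in bases (called Length). Per the file headers, the counts come from featureCounts (Subread 2.0.0) with GENCODE 28 lifted to GRCh37, on exons per gene, reverse-stranded, primary alignments with mapping quality of at least 1, both mates mapped, and reads in overlapping genes given to each. The submitters' processing notes name STAR 2.7.3a and GRCh37. Counts were used as deposited. They were tested with edgeR 4.0.16 (R 4.3.3) by the quasi-likelihood test with TMM scaling and a minimum count of 10, which kept 24185 genes, with line and treatment as terms. The line pairs each untreated with its treated library. A call is an adjusted p under 0.05. CPM values are TMM-scaled. Treated over untreated ratios within a line used a prior count of 5. In simulated counts with 100 genes changed 2-fold and 100 changed 4-fold, the treatment test recovered 99 of the former, with 10 false calls among 24185 genes. The changed genes had a mean above 5 CPM and changed alike in all 4 lines, and no differences between lines were simulated. This recovery therefore does not carry over to lower copies or to a change in 1 line. Alternatives were DESeq2 1.42.0, library totals, other filters and leaving out libraries. Named genes were the 4 markers HIST1H3C, HIST1H4D, HIST1H2AD and HIST2H2BE, the copy of each class with the highest CPM per kb, members at 0 in EBC1, the 5 highest and 5 lowest called in EBC1 and 3 and 3 in each other line, the 5 smallest treatment p per direction (of the lower ones 4 exist), and 2 genes per accompanying list. Members, lists and rules were chosen with earlier results of these data known.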

Additional observations from a re-analysis of the deposited data

How the results depend on the processing

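Leaving out 1 library or line in turn gave 49 to 57 members called in H23 (main 53), 43 to 53 in EBC1 (51), 46 to 52 in H820 (51), 43 to 52 in H1975 (49) and 0 to 0 for treatment. Shares of all genes called in these fits are not given here, so the ranges have no background to be read against. With treatment alone as a term (no replicate block, so that the pairing by line was ignored), 0 members were called for treatment and 0 had an unadjusted p under 0.05. Without a filter on low counts 5 members were called for treatment in place of 0. Library totals in place of TMM moved the median log2 difference of all genes from 0.10 to 0.54 in H23 and from -0.08 to -0.40 in EBC1; relative to all genes, the members' median stayed at 1.33 and 1.34 in H23 and 0.69 and 0.69 in EBC1. Within H820, library totals gave a median log2 ratio of members over all genes of 0.98, against 1.03. Taking copies under 1 CPM in both EBC1 libraries and used elsewhere gave 15 silent copies in place of 8. Class shares moved after division by length (H2A 25.0%, H2B 24.8%, H3 14.8%, H4 13.0%) and, for H2A, without members overlapping another gene (21.0%). Of the named members' treatment changes, 252 kept their direction and side of the threshold under an alternative, 3 passed it and 22 changed sign, none of which had been called. In H23 and H1975 alone the values were HIST1H4D -0.0028, HIST1H2AD -0.17, HIST1H3B -0.0398, HIST1H3D -0.0235, HIST1H4E -0.19, HIST1H3G -0.0248 and HIST1H2BI -0.0018. Leaving out 1 line in turn gave ranges of -0.16 to 0.45 for HIST1H2AD, -0.0293 to 0.27 for HIST1H3D, -0.19 to 0.49 for HIST1H4E, -0.0331 to 0.75 for HIST1H3G, -0.0144 to 0.65 for HIST1H2BI, -0.36 to 0.21 for HIST1H2BB, -0.16 to 0.00964 for HIST1H3J, -0.0217 to 0.19 for HIST1H2BM, -0.36 to 0.35 for HIST3H2BB and -0.40 to 0.11 for HIST2H4A. HIST1H2BB was at 0.0219 without the filter and 0.21 without the pairing. DESeq2 gave HIST3H2BB -0.0296 and HIST2H4A 0.0189. Of the line differences, 344 kept direction and side and 6 lost their call. HIST1H2AD and HIST1H3G in H820 became -0.58 and -0.79 without the EBC1 libraries, an alternative chosen after seeing the data. The shallow untreated libraries of EBC1 and H820 limit what is seen of low copies.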
